A study of Mus musculus with 2 samples.

Results

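Cytochrome c oxidase, complex IV of the respiratory chain, passes electrons from cytochrome c to oxygen. Its catalytic core is encoded by mitochondrial DNA, and nuclear genes encode the subunits around it. For several of these subunits mammals keep paralogous genes, of which a general form is used by most tissues and a muscle form by heart and skeletal muscle. The 10 nuclear genes described here are Cox4i1 and Cox4i2, Cox6a1 and Cox6a2, Cox6b1, Cox7a1, Cox7a2 and Cox7a2l, and Cox8a and Cox8b. They were chosen by name, and all 10 were found by symbol and Ensembl identifier among the 55536 mouse genes of the tables.

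Total RNA was sequenced from heart tissue of adult female mice of a 5xFAD and CAST cross, 8 to 10 months old, from The Jackson Laboratory. 5xFAD mice carry mutant human transgenes of Alzheimer's disease under the neuronal Thy1 promoter, and CAST is a wild-derived strain. Both libraries belong to this 1 group and carry the same genotype, sex and age, so no control or treated group could be set against another and no test between conditions was possible. The labels call them biological replicates but give them the same donor identifier, so an SD describes only the spread between these 2 libraries, which may be technical.

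The libraries held 45599940 and 40801299 expected counts, the authors' estimates of the reads that belong to each gene. All 6 cardiomyocyte markers were expressed, with mean levels from 366 (Ryr2) to 7882 TPM (Myl2). TPM is a relative abundance corrected for transcript length, given here over mouse genes without spike-ins. Skeletal muscle fibres, brown fat and lung also use forms of this family. Of the 4 lung markers, Sftpc, Sftpb and Scgb1a1 had 0 expected counts in both libraries, which allows up to 3 counts in each. Ager, the other, had 2 and 0 counts, and the tables derived directly from reads listed Sftpb at 0.016 and 0.039 TPM. The 7 skeletal fibre markers summed to 14.7 and 10.2 TPM, and the 6 brown adipocyte markers to 13.0 and 14.9 TPM with most of it on Cidea. The 8 pericyte markers summed to 191 and 202 TPM, most of it on Abcc9 (82.6 and 83.0) and Rgs5 (79.5 and 83.3). Whether the RNA of these 2 genes came from pericytes was not tested. In these bulk samples, fewer cells of a type and less RNA per cell cannot be told apart.

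The muscle and general forms of Cox6a, Cox7a and Cox8 are separate genes with diverged coding sequences, shown because every ratio of forms below rests on telling them apart by their reads. Sequences are from the GENCODE M21 transcripts on mm10, 5′ to 3′, from the start to the stop codon except for Cox6a1, printed from base 40 to 339 of its coding sequence, and the capitals mark the longest run of bases that the 2 forms of a pair share.
Cox6a2: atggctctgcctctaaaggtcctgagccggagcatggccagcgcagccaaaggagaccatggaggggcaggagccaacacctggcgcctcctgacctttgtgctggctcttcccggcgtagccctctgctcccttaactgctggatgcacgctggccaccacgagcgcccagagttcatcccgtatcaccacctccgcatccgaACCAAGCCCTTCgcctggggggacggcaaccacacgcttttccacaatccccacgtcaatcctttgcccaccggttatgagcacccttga
Cox6a1: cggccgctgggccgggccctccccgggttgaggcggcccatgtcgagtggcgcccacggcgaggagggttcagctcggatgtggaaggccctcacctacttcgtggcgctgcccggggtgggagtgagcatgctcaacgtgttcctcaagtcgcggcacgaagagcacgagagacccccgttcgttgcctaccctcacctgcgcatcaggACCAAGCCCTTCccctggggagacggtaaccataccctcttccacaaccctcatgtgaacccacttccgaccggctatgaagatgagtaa
Cox7a1: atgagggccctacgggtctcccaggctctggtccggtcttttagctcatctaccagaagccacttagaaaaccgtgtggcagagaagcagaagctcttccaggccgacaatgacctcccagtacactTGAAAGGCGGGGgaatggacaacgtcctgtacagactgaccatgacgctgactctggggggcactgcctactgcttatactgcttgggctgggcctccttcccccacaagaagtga
Cox7a2: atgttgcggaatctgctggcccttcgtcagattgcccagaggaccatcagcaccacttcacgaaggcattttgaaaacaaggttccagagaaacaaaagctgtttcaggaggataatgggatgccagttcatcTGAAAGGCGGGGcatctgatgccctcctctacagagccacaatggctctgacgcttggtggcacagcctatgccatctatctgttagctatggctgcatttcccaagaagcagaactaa
Cox8b: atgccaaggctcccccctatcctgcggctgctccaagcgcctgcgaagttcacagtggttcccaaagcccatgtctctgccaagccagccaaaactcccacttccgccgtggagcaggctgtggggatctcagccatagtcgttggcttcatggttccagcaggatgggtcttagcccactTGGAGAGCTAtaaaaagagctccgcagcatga
Cox8a: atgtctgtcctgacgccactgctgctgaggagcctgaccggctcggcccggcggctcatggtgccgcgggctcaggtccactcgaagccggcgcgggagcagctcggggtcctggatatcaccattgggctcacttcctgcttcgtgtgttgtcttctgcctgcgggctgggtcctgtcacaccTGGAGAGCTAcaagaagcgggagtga

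In a global alignment the coding sequences were identical at 64.6% of aligned bases for the Cox6a pair (294 and 339 bases), 62.6% for the Cox7a pair (243 and 252 bases) and 56.4% for the Cox8 pair (213 and 210 bases). The longest shared run was 12, 12 and 10 bases. Cox4i2 and Cox4i1 were identical at 69.2% with a longest run of 14 bases, and Cox7a2l and Cox7a2 at 68.8% with a run of 11. The longest runs over the whole main transcripts were no longer than 14 bases, so no 31-base word was common to the 2 forms of a pair in them. Other genes shared more. Of the 31-base words of Cox7a2l, 16.6% also occur in Gm6969, which was itself credited with 708 and 670 expected counts, so how reads were divided between them is uncertain. Cox6a1 shared 18.5% of its words with AC148174.2, which had 0 counts in both libraries. Cox4i1 shared 7.59% with Emc8, a gene that overlaps its first exon on the opposite strand and had 637 and 586 counts. Cox4i2, Cox7a1, Cox8a and Cox8b shared no word with another gene. All of these sequences are of the reference genome, and the CAST alleles of the cross were not examined. Whether differences of those alleles from the reference entered the levels or ratios was not tested.

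Promoters were compared in windows of 250 bases before and 50 after the RefSeq start (GRCm38.p6), a table that held 7 of the 10 genes and both forms of the Cox7a and Cox8 pairs. The 4 are printed up to the first annotated exon, since muscle and general forms stood far apart in level, and the capitals mark matches to the motifs searched.
Cox7a1 (chr7:30183921-30184143, plus strand): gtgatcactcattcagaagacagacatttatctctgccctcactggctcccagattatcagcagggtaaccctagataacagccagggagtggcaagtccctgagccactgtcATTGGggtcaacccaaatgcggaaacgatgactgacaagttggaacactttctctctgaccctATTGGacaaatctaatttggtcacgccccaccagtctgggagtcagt
Cox7a2 (chr9:79759879-79760103, minus strand): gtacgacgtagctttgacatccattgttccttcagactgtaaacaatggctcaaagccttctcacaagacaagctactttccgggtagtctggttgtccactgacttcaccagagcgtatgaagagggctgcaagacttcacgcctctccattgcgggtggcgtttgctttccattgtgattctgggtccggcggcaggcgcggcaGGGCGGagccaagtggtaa
Cox8b (chr7:140900447-140900696, minus strand): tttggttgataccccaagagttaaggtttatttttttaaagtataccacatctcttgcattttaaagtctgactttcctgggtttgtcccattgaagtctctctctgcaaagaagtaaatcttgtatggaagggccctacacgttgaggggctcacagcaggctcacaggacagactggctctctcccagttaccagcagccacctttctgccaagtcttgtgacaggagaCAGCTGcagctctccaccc
Cox8a (chr19:7217617-7217866, minus strand): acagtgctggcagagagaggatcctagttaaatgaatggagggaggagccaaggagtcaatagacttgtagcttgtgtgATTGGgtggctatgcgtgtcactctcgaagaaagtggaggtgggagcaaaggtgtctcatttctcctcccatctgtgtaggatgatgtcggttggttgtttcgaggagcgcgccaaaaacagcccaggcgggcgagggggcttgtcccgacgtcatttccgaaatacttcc

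The muscle forms had fewer CG dinucleotides in the 300-base window, 7 for Cox7a1 against 20 for Cox7a2 and 2 for Cox8b against 19 for Cox8a. The median over 32841 promoters of this length was 7, and 14.1% of them held fewer than Cox8b. Cox6a1, the general form of the pair without a second promoter, held 32. Motifs were searched on both strands as exact letters, with TATAAA in 13.6% of all windows, CAGCTG (an E-box read by myogenic factors) in 16.3%, CCAAT in 37.4%, GGGCGG (a GC box) in 35.7%, CCGGAAG (an ETS site) in 8.86%, AAGGTCA (a site of oestrogen-related receptors) in 4.72% and GCGCATGC (the core of an NRF1 site) in 2.71%. Cox8b held CAGCTG 19 bases before and 17 bases after its annotated start, and TATAAA 5 bases after it. Cox7a1 held CCAAT 74 and 137 bases before the start, and Cox7a2 a single GC box 44 bases before it. Cox8a held CCAAT 171 bases before its start, and CCGGAAG 5 bases before and 33 after it, of which the CCAAT match lies wholly in the printed letters. Cox6a1 held GCGCATGC 162 and 160 bases before its start, on opposite strands and overlapping. It also held GGGCGG 139 and 44 bases, CCAAT 74 bases and CCGGAAG 16 bases before the start. Cox6b1 held CCAAT 177 and 74 bases before and 8 bases after its start, and CCGGAAG 28 bases before it. Cox7a2l held GGGCGG 22 bases before and 13 bases after its start. No window of the 7 genes held AAGGTCA. These matches describe letters of the reference genome in a window, and no binding was measured.

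Of the pairs, Cox6a2 encodes the muscle form of subunit 6a, which lies at the face of the enzyme where adenine nucleotides act. Cox6a2 (ENSMUSG00000030785.8, chromosome 7 from 128205435 to 128206387) had a level of 1252 TPM in the first library and 1212 in the second. Cox6a1, the general form (ENSMUSG00000041697.8, chromosome 5), stood at 70.4 and 85.2 TPM. The muscle form was thus far above the general one in both libraries. Relative to its level, the general form differed more between the libraries. The TPM ratio was 17.8 and 14.2 (16.0 ± 2.52, SD, n = 2), and Cox6a2 made up 94.7% and 93.4% of the pair. The tables derived directly from reads gave ratios of 17.1 and 13.7.

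Cox7a1, the muscle form of subunit 7a (ENSMUSG00000074218.3, chromosome 7), stood at 1066 and 1099.7 TPM. Cox7a2, its general form (ENSMUSG00000032330.7, chromosome 9), stood at 324 and 337 TPM and was the most abundant of the 3 general forms. This was the pair with the least uneven share, with a ratio of 3.29 and 3.26 (3.27 ± 0.0215) and 76.6% ± 0.118 of the pair on the muscle form. The ratio depended on the quantification. It was 2.67 and 2.61 in the direct tables and 3.79 and 3.88 over protein-coding transcripts alone. Not corrected for length, the expected counts were 12206 and 10850 for Cox7a1 and 6713 and 5960 for Cox7a2, a ratio of 1.82 in both libraries.

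Cox8b encodes the muscle form of the smallest subunit, a gene that is active in mouse and a pseudogene in humans. It stood at 1131 and 1081 TPM (ENSMUSG00000025488.9, chromosome 7 from 140898945 to 140900446), and Cox8a, the general form (ENSMUSG00000035885.5, chromosome 19), at 143 and 156 TPM. The ratio was 7.90 and 6.91 (7.40 ± 0.699), with 88.1% ± 0.994 of the pair on Cox8b. In the direct tables it was 8.43 and 7.72. By expected counts it was 4.56 and 3.99, since Cox8b has the shorter transcript (360 against 550 bases).

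Across the pairs, the 3 muscle forms lay within 1.14-fold of each other in mean TPM, from 1083 to 1232, whereas the general forms spread 4.25-fold, from 77.8 to 331. Since the muscle forms lay so close, the order of the pairs by ratio was necessarily the reverse of that of the general forms by level. All of these are levels per length in the gene tables.

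**Figure D1:**
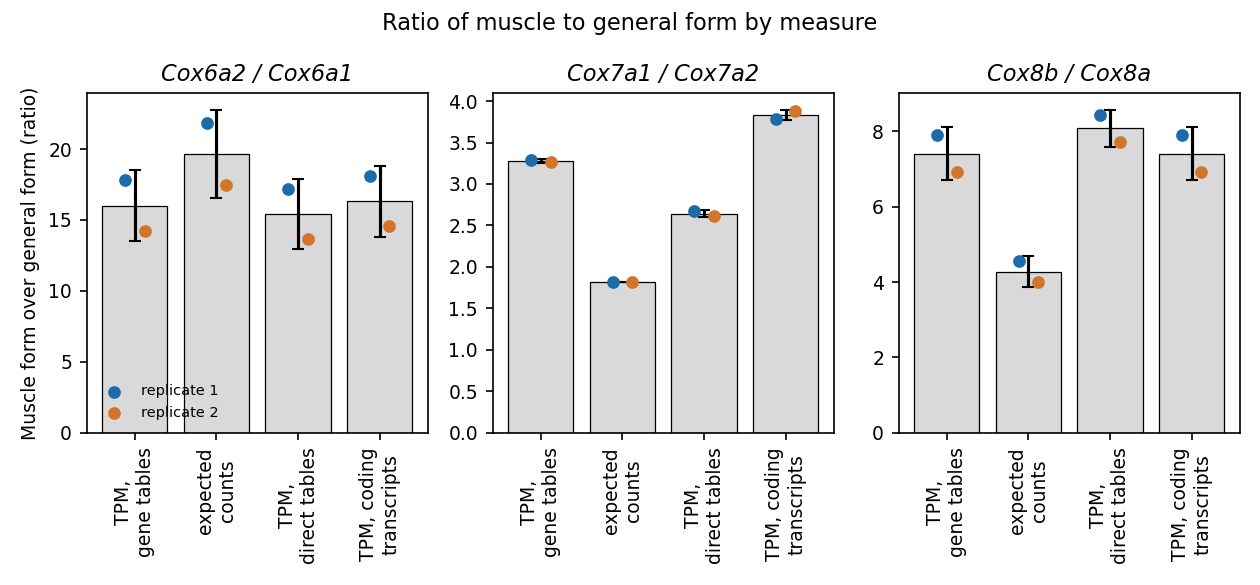
Ratio of the muscle to the general form of Cox6a, Cox7a and Cox8 (vertical axis, linear from 0) by 4 measures (horizontal axis); bars are means, error bars the SD of 2 libraries, and points the libraries. The ratio lay above 1 for every pair, measure and library, and the measure moved Cox7a between 1.82 and 3.83 and Cox8 between 4.28 and 8.07.

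Subunit 4 regulates the enzyme and has a common form, Cox4i1, and Cox4i2, which is known from lung and from the mural cells of vessels and is induced by low oxygen. Cox4i1 (ENSMUSG00000031818.12, chromosome 8) stood at 1626 and 1586 TPM. Cox4i2 (ENSMUSG00000009876.13, chromosome 2) stood at 3.94 and 4.59 TPM, on 96 expected counts in each library. Cox4i2 was the lowest of the 10 genes by 18.2-fold in mean level and made up 0.242% and 0.288% of the pair. Its level was of the order of pericyte markers such as Kcnj8 (5.98 and 6.25 TPM), Vtn (4.61 and 5.86) and Higd1b (2.02 and 3.52), and below Rgs5 (79.5 and 83.3) and Abcc9 (82.6 and 83.0). Which cells its transcripts came from was not tested.

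Cox6b1, which joins the monomers of the dimeric enzyme on the side where cytochrome c docks, stood at 1621 and 1671 TPM (ENSMUSG00000036751.7, chromosome 7). Its testis form Cox6b2 had 14 and 15 counts (0.865 and 1.07 TPM). Cox7a2l is a relative of subunit 7a that joins complex IV to complex III in supercomplexes. It stood at 104 and 109 TPM (ENSMUSG00000024248.14, chromosome 17), below both Cox7a1 and Cox7a2 in both libraries. Laboratory mouse strains differ in a short deletion in Cox7a2l, and alleles were not separated here.

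By mean TPM the order was Cox6b1, Cox4i1, Cox6a2, Cox8b, Cox7a1, Cox7a2, Cox8a, Cox7a2l, Cox6a1 and Cox4i2. The values of the libraries overlapped between Cox6b1 and Cox4i1 and between Cox8b and Cox7a1, so neither of these neighbours could be ordered. For the other 7 neighbours they did not overlap. In the direct tables the first 5 stood in another order, Cox4i1 (1767 TPM), Cox8b (1363), Cox6a2 (1298), Cox6b1 (1281) and Cox7a1 (1276) by mean. There Cox6b1 was at 0.719 and 0.730 times Cox4i1, and Cox6a2 at 0.964 and 0.940 times Cox8b. Among 22015 nuclear protein-coding genes, the first 5 ranked between 15 and 30 in both libraries, Cox7a2 at 150 and 153, and Cox4i2 at 7646 and 7291. The 10 genes together took 2.21% and 2.12% of nuclear protein-coding TPM.

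**Figure D2:**
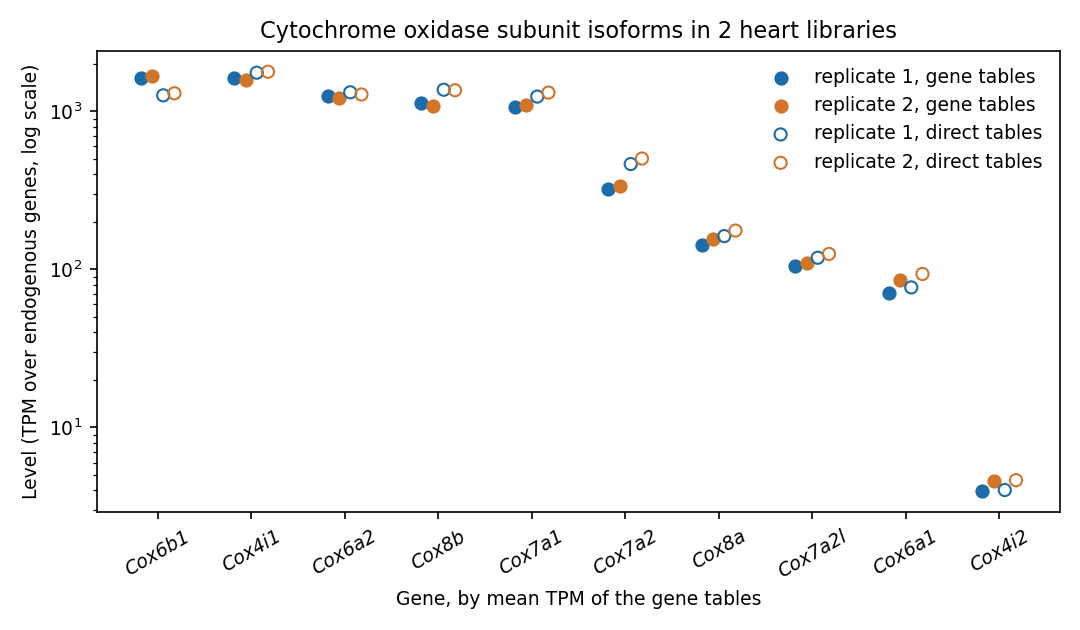
Level of each gene in TPM over endogenous genes (vertical log axis), for both libraries (colours) in the gene tables (filled) and the direct tables (open). Cox6b1, Cox4i1 and the 3 muscle forms lie above 1000 TPM, the general forms and Cox7a2l between 70.4 and 502, and Cox4i2 below 5.

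The direct tables placed most of these genes higher. Cox7a2 stood there at 464 and 502 TPM, 1.43 and 1.49 times its level in the gene tables, and Cox8b at 1368 and 1359 TPM, 1.21 and 1.26 times. Cox6b1 went the other way, to 1262 and 1299 TPM, 0.778 and 0.777 times. Both kinds of table correct for transcript length in their own way. Effective lengths of the transcripts of these genes were 100 bases below the full length in the gene tables and 204.9 to 218 bases below it in the direct tables of replicate 1. The part of this in the differences was not tested.

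Cox6a2 and Cox8b have a single annotated transcript, and Cox6a1, Cox7a2l and Cox8a carried at most 2.23% of their TPM on non-coding transcripts in any table. Cox4i2 has 2 annotated transcripts with 519 coding bases each and different first exons, and the kinds of table placed its reads oppositely. The alignment-based tables gave Cox4i2-201 100% in both libraries, and the direct tables gave Cox4i2-202 100% in replicate 1 and 86.8% in replicate 2. For Cox6b1 the kinds of table differed too. The alignment-based tables placed 53.7% and 54.4% of its TPM on Cox6b1-204, 42.7% and 43.7% on Cox6b1-202, annotated as a retained intron, and 3.43% and 1.54% on Cox6b1-201, which has the longest reading frame (261 coding bases). The direct tables placed 54.7% and 56.0% on Cox6b1-204 as well, but 45.1% and 43.8% on Cox6b1-201 and 0.148% and 0.242% on Cox6b1-202. The kinds of table were close in the total for the 114-base second exon of Cox6b1-201 (chromosome 7 from 30624500 to 30624613), a view chosen after these values were seen. Transcripts that hold it took 46.1% and 45.3% of the TPM in the gene tables and 45.3% and 44.0% in the direct tables. Cox6b1-204 lacks this exon and has 132 coding bases. The annotated transcripts that hold the second exon are Cox6b1-201, whose last exon has 302 bases against 189 in Cox6b1-204, and Cox6b1-202. Over protein-coding transcripts only, Cox6b1 stood at 927 and 935 TPM in the gene tables, most of it on Cox6b1-204 and its 132 coding bases.

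For Cox4i1, the retained-intron transcript Cox4i1-203, which spans the last 2 exons and part of the intron before them, took 8.25% of the TPM in replicate 1 and 12.8% in replicate 2 of the gene tables, and 9.15% and 14.4% in the direct tables. It was higher in replicate 2 in both kinds of table. For Cox7a2, the non-coding Cox7a2-203 with another first exon took 12.6% and 15.5% against 24.9% and 30.5% in the direct tables. Cox7a1-202, whose first exon starts and ends further downstream but overlaps that of Cox7a1-201, took 2.59% and 2.96% of Cox7a1 against 20.4% and 26.2% in the direct tables.

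**Figure D3:**
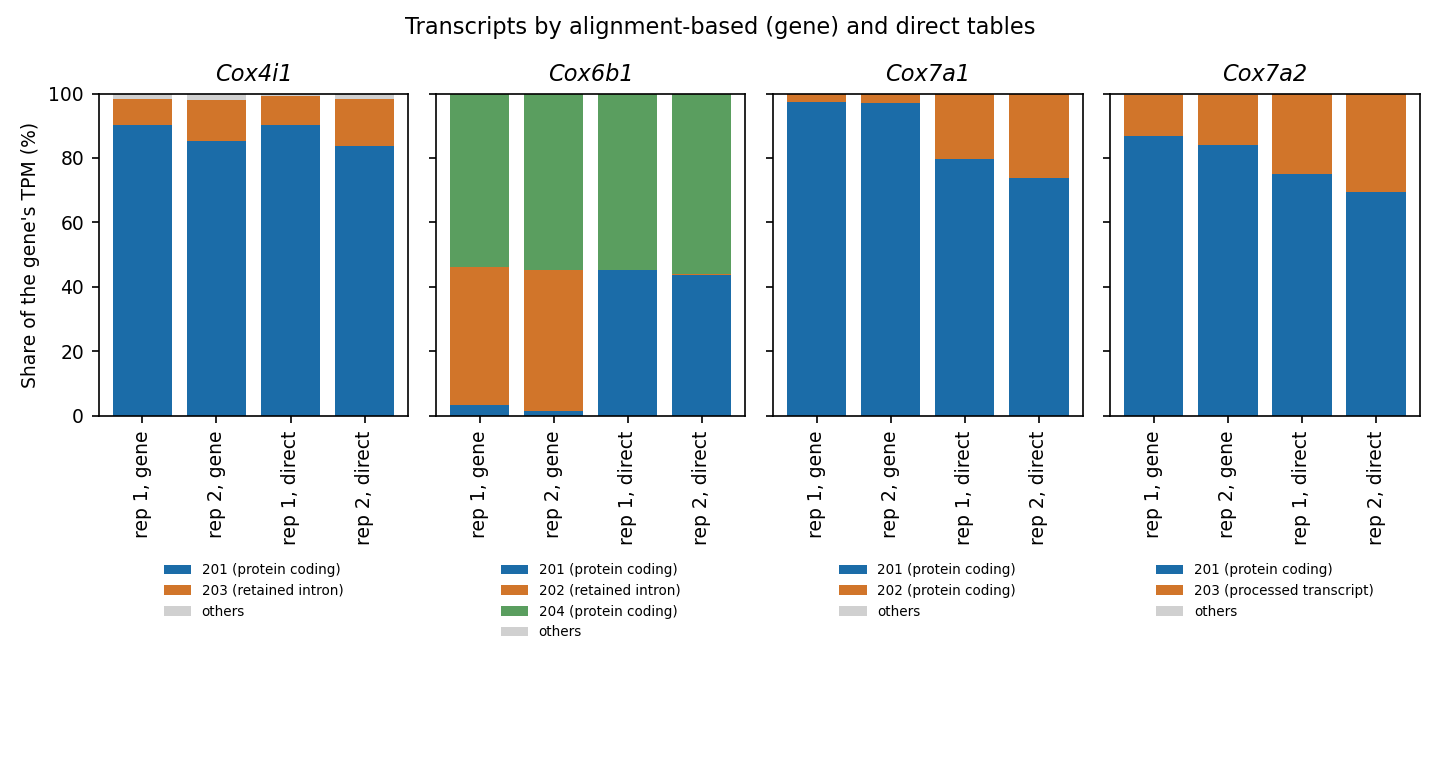
Share of a gene's TPM (vertical axis, percent) on each annotated transcript for 4 genes with divided estimates (Cox4i2 is given in the text), by library and kind of table (horizontal axis). For Cox6b1 the gene tables place 42.7% and 43.7% on the retained-intron transcript 202, and the direct tables place 45.1% and 43.8% on the coding transcript 201 instead.

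Each enzyme monomer holds a single copy of each subunit, so forms of a subunit were summed and set beside the nuclear subunits that have a single form in these hearts. The sums were 1310.0 ± 18.1 TPM for Cox6a, 1413 ± 33.4 for Cox7a and 1256 ± 26.2 for Cox8, beside 1610 ± 27.9 for Cox4 and 1647 ± 35.4 for Cox6b (SD, n = 2). These 5 positions lay within 1.31-fold of each other in the gene tables, 1.38-fold in the direct tables and 1.54-fold over protein-coding transcripts. The Cox7a sum holds Cox7a1 and Cox7a2 only, so these spreads leave out Cox7a2l. That gene stood at 104 and 109 TPM, and at 118 and 125 in the direct tables.

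The other nuclear subunits lay lower in the gene tables. Ndufa4, which was first assigned to complex I, stood at 1150 ± 28.9 TPM, Cox6c at 999.9 ± 34.2, Cox5a at 857 ± 7.13 and Cox5b, the zinc-binding subunit, at 806 ± 6.52. Cox7b and Cox7c stood at 634 ± 24.6 and 512 ± 4.23. All 11 positions spread 3.22-fold in the gene tables and 2.01-fold in the direct tables, where Cox7c stood at 883 and 903 TPM. Over protein-coding transcripts the spread was 5.22-fold, since Cox5b then stood at 275 TPM and Cox7b at 326. The other subunits did not all lie lower by these measures. In the direct tables Cox6c had a mean of 1285 TPM beside 1282 for Cox6b. Over protein-coding transcripts Ndufa4 (1149 TPM) and Cox6c (998) lay above Cox6b (932). Testis forms were near absent, with Cox7b2 and Cox8c at 0 counts, which allows up to 3. Ndufa4l2, a relative of Ndufa4 found in pericytes, stood at 6.45 and 7.37 TPM.

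**Figure D4:**
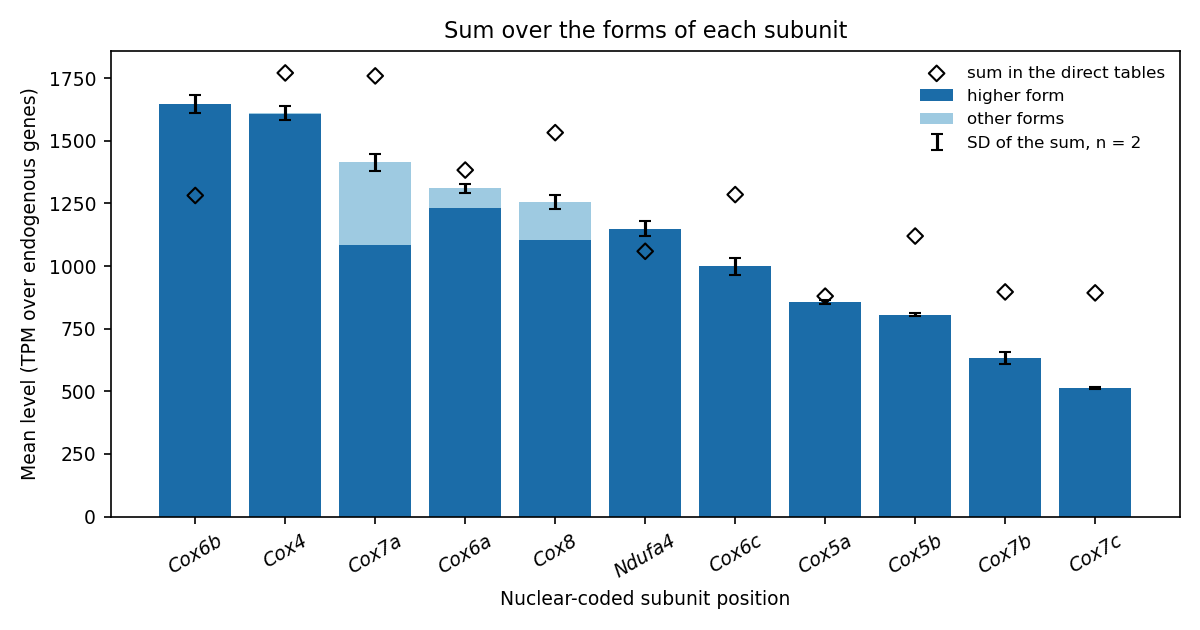
Mean level in TPM (vertical axis) summed over the forms of each nuclear-coded subunit of complex IV (horizontal axis), with the higher form dark, other forms light, the SD of the sum of 2 libraries as error bars and the sum in the direct tables as diamonds. The general form adds most to Cox7a, and the 5 positions with members described here lie between 1256 and 1647 TPM. Cox7a2l is left out of the Cox7a sum.

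Of the mitochondrially encoded core, mt-Co1, which holds the oxygen-binding site, stood at 34207 and 35297 TPM. mt-Co3 stood at 29298 and 31350 TPM, but at 14946 and 19234 in the direct tables. Both genes lay above every nuclear subunit in both kinds of table. mt-Co2, which receives electrons from cytochrome c, was listed at 757 and 848 TPM but at 5066 and 6642 in the direct tables. A nuclear copy of part of the mitochondrial genome lies on chromosome 1, so how reads were divided is uncertain for these genes. Somatic cytochrome c, Cycs, stood at 54.0 and 61.2 TPM and at 259 and 320 in the direct tables, and testis cytochrome c, Cyct, had 3 and 1 counts. The 28 assembly and translation factors, which insert copper and haem or mature the core subunits, had a median of 21.4 TPM in the gene tables, all at least 1 TPM in both libraries there, while the direct tables listed Pet117 at 0 and 0.477 TPM. The copper chaperone Cox17 (125 and 119 TPM), Cox14 (77.5 and 82.7) and Higd1a (66.4 and 69.2) led them, and Pet117 (2.86 and 3.56) and Tmem177 (3.10 and 3.53) were lowest. Cox17 lay near the level of Cox7a2l and above Cox6a1.

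Between the libraries, a gene was counted as apart where its TMM-scaled count was 25% higher or 20% lower in replicate 2, a log2 ratio of 0.32 either way. Of the 10 genes 0 were apart, beside 11.5% of the 12492 genes whose counts averaged 50 or more. At 1.5-fold the count was 0 beside 2.83%, and at 2-fold 0 beside 0.568%. With 1 library against 1, these are folds without a test. The shares over all genes were not matched for counts. All of the 10 genes but Cox4i2 had at least 1288 counts in each library, whereas the shares include genes down to a mean of 50. The median log2 ratio, replicate 2 over replicate 1, was -0.02 over the 10 genes and -0.01 over all genes tested, and the median absolute log2 ratio 0.09 and 0.11. Of the 10 genes 3 stood above 0, beside 48.8% of all genes. Those were Cox6a1 at 0.21, Cox4i2 at 0.15 and Cox8a at 0.06. The lowest were Cox4i1 at -0.14, Cox8b at -0.13 and Cox6a2 at -0.11. With spike-in totals as the scale, the median over all genes was 0.21 and all 10 lay above 0, with 2 of them (Cox6a1 and Cox4i2) apart beside 27.2% of all genes, so these directions hold relative to other genes only. Scaling by library size also placed Cox7a2l above 0 (0.01), and the direct tables Cox7a1 (0.01). Counting intervals, which cover counting error only, were 1.07 to 1.248 for the fold of Cox6a1 (1.16-fold higher in replicate 2, from 1288 and 1342 counts) and 0.827 to 1.49 for Cox4i2.

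**Figure D5:**
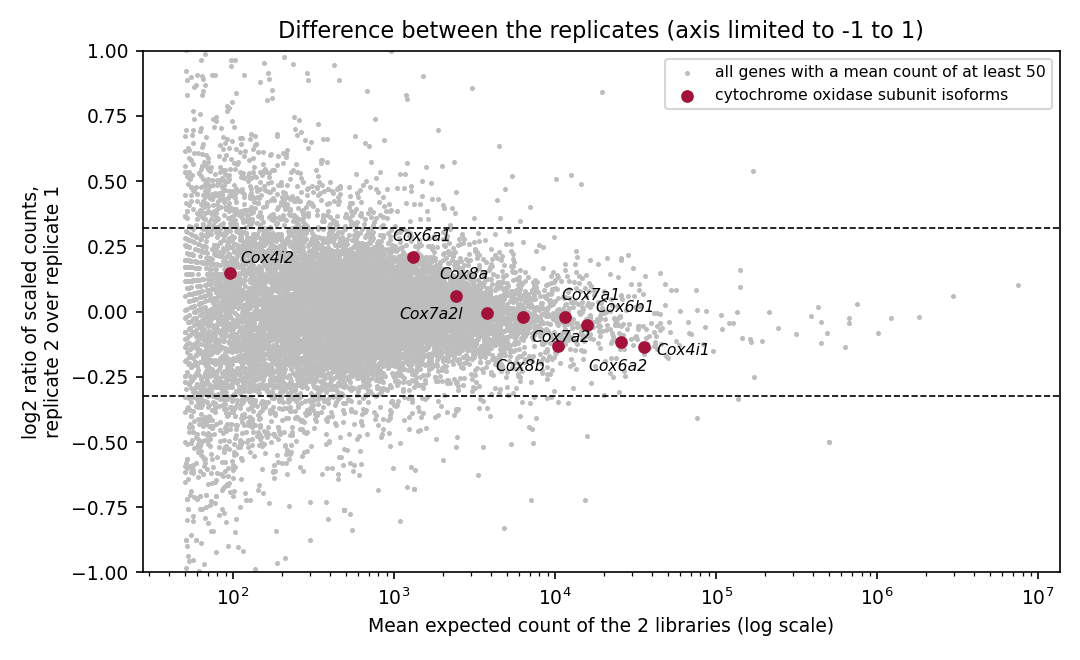
log2 ratio of TMM-scaled expected counts, replicate 2 over replicate 1 (vertical axis), against the mean expected count (horizontal log axis), for genes averaging 50 counts or more (grey) and the 10 genes (red, named); dashed lines mark 0.32 either way, and genes beyond the axis limits are not drawn. All 10 lie between the lines, Cox6a1 highest at 0.21 and Cox4i1 lowest at -0.14.

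The ratio of muscle to general form needs no scaling between libraries. From counts, the Cox6a ratio of replicate 2 was 0.799 times that of replicate 1 (95% counting interval 0.739 to 0.864) and the Cox8 ratio 0.875 times (0.822 to 0.931), while the Cox7a ratio was 1.00 times (0.959 to 1.05). Direct tables gave 0.796, 0.916 and 0.978 in TPM. The muscle share was thus lower in replicate 2 for Cox6a and Cox8 by more than counting error, but not for Cox7a. These intervals leave out other variation between libraries, and how far other pairs of genes shifted was not tested. Other lists moved between the same libraries. Of the 4 skeletal fibre markers with enough counts, 4 were apart and lower in replicate 2. Those with too few counts had log2 ratios of -1.23 (Myh2), -0.91 (Tnnc2) and -0.20 (Mylpf, 54 and 42 counts), the last within the threshold. Of 8 pericyte markers 2 were apart and higher, with 6 of 8 above 0 and a list median of 0.13. Of 6 cardiomyocyte markers 1 was apart, Actc1 at 1.45-fold higher, and of 2 brown adipocyte markers with enough counts 1 was, Ucp1 at 2.39-fold higher on 32 and 69 counts. Over all genes tested the share apart was 11.5%. In the same contrast, the 6 other nuclear subunits had a median of -0.04 with 0 apart and 1 above 0. The 28 assembly factors had a median of 0.06 with 0 apart and 21 above 0, beside 48.8% of all genes above 0. The part of other cell types in the shift was not tested.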

How the data were processed

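Per the labels, total RNA (300 ng per library) was made into directional libraries with ERCC spike-ins. Per the deposited file lists, the authors' gene and transcript tables derive from an alignment to the transcriptome and their direct transcript tables from reads, on mm10 with GENCODE M21; the quantifiers, and whether counting used the strand, are not given in the sources used here. The authors deposited expected counts (unnormalised estimates of reads), TPM, the percent of each gene's TPM that a transcript holds and TPM credibility bounds, not reported here. TPM were rescaled to the 55536 mouse genes, and direct values were summed per gene. Rounded expected counts were scaled with TMM in edgeR 4.0.16 (R 4.3.3), with a prior count of 2 in log2 ratios. Genes were called apart at a log2 ratio of 0.32 where counts averaged 50 or more. A check on simulated data asked only that larger changes be called. At 0.32 the simulation also called many unchanged genes, so this threshold is read only beside the share over all genes. Fold intervals are exact binomial, and intervals of ratios of counts are on the log scale. Alternatives were DESeq2 1.42.0 size factors, library size, spike-in totals, other thresholds, other measures and each library alone. Coding sequences were aligned with Biopython 1.88 (match 2, mismatch -1, gap -5 and -1). Python 3.11.15 with pandas 2.3.3 and scipy 1.17.1 was used. Genes named are all 10 members and fixed lists of complex IV genes, with the 3 highest and 2 lowest assembly factors, the highest markers and those at 0, and genes sharing at least 10% of a member's words; Emc8, single markers, the promoter motifs and the exon view were chosen after values were seen. Members and lists were chosen with earlier results of these data known.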

Additional observations from a re-analysis of the deposited data

How the results depend on the processing

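The direction of all 4 ratios of forms was the same under each alternative run. By expected counts, without correction for length, the ratio of Cox6a2 to Cox6a1 was 19.7, of Cox7a1 to Cox7a2 1.82 and of Cox8b to Cox8a 4.28. The direct tables moved the Cox7a ratio to 2.64. Over protein-coding transcripts only, an alternative chosen after seeing the data, the Cox7a ratio was 3.83 and that of Cox4i2 to Cox4i1 0.00299. With each library alone, ratios ranged from 14.2 to 17.8 for Cox6a, 3.26 to 3.29 for Cox7a, 6.91 to 7.90 for Cox8 and 0.00243 to 0.00289 for Cox4. Of the 10 genes, 2 (Cox6a1 and Cox4i2) were apart by 0.32 or more (log2) between replicates with spike-in totals, beside 27.2% of all genes, and 0 under the other 7 alternatives. Leaving out a library leaves no fold between replicates. The direct tables moved 8 of 10 levels by more than the spread between libraries, to a mean TPM of Cox4i1 1767, Cox6a2 1298, Cox6b1 1281, Cox7a1 1276, Cox7a2 483, Cox7a2l 122, Cox8a 169 and Cox8b 1363. TPM over nuclear protein-coding genes, a smaller total, was Cox4i1 4739, Cox4i2 12.6, Cox6a1 229, Cox6a2 3636, Cox6b1 4855, Cox7a1 3193, Cox7a2 975, Cox7a2l 315, Cox8a 442 and Cox8b 3264. Over protein-coding transcripts only, the mean TPM was Cox4i1 1430.2, Cox6b1 931 and Cox7a2 283. No paired analysis was possible because there is 1 group. Cox4i2 is limited by its 96 counts in each library.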
